A study of Homo sapiens with 2 samples.

Results

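The genes described here are 10 members of the EGF receptor system: the ligands AREG, EREG, HBEGF, TGFA and BTC, the receptors EGFR, ERBB2 and ERBB3, and the sheddases ADAM17 and ADAM10. They were taken by symbol from a table of 21115 genes, and each symbol matched 1 row. The cells were HCT116, an established human colorectal carcinoma line. One culture received 1 µM CB-5083, an inhibitor of the ATPase p97 (VCP), and the other its solvent DMSO, both for 8 h in McCoy's medium with 10% serum. Each treatment was 1 library of polyadenylated RNA, so the differences lack a replicate check and treatments could not be tested against each other. Intervals cover counting error only.

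EGF family ligands are made as membrane-anchored precursors with an EGF domain outside the cell. Metalloproteases of the ADAM family cut them free, and the released ligand then binds EGFR on the same or a neighbouring cell. ADAM17 is the main sheddase of AREG, EREG, HBEGF and TGFA, whereas ADAM10 is the main sheddase of BTC. Bound EGFR pairs with itself or with ERBB2 or ERBB3 and drives the RAS-ERK and PI3K pathways. In colorectal cancer AREG and EREG are the best known of these ligands, as markers of tumours that depend on EGFR signalling.

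With CB-5083, HBEGF, AREG, EREG, EGFR and ADAM17 transcripts were at least 2-fold higher, and the other members were within 2-fold. HBEGF was 14.2-fold and AREG 10.8-fold higher, against 3.66-fold for ADAM17, 2.32-fold for EREG and 2.04-fold for EGFR. Levels are in CPM (counts per 1000000, scaled by trimmed mean of M-values, TMM). The terms higher and lower are used of genes that reached 5 CPM in a library and whose log2 of (CB-5083 + 1) over (DMSO + 1) was at least 1 in size. By this rule 5 of 10 members were higher and 0 lower. Of all 9543 genes past the filter 7.22% were higher and 4.91% lower. The median log2 ratio was 0.98 over the members and 0.09 over the genes past the filter. 9 of the members passed the filter, and these reached 5 CPM in both libraries. BTC did not pass.

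Sequencing depth, in estimated counts, was 29273892 for DMSO and 31998170 for CB-5083. Of 8 markers of colorectal epithelium, 5 were above 10 CPM in both libraries (EPCAM, CDH1, KRT8, KRT18 and KRT19), while CDX2 lay at 3.76 and 2.92 CPM and VIL1 and CEACAM5 were at or near 0. The summed epithelial markers were at 1121 CPM in DMSO and 1670 CPM in CB-5083, and the part of this difference in the results was not tested. The summed leukocyte markers were at 0.0607 and 0 CPM, the fibroblast markers at 2.63 and 3.52 CPM, nearly all of it COL1A1, and the endothelial markers at 0.123 and 0.112 CPM. Scaling by library totals lowered the median log2 ratio of the genes past the filter by 0.33. In bulk RNA, fewer cells and less RNA per cell cannot be told apart.

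The promoters of AREG, EREG and HBEGF are shown here because these ligands were higher together, and that of an internal EGFR start for its motif matches, which were seen first. Each is the stretch from 250 bases before to 50 after the RefSeq start, on the gene's strand in GRCh38.p14. For AREG this is chr4:74444886-74445185 (plus strand), for EREG chr4:74364895-74365194 (plus), for HBEGF chr5:140346554-140346853 (minus) and for an internal EGFR start chr7:55109589-55109888 (plus). Capitals mark a match to 1 of 5 motifs searched on both strands. These were the cyclic AMP response element TGACGTCA, the AP-1 site TGANTCA, the ATF4-C/EBP composite TGATGNAA, the unfolded protein response core TGACGTG, and the ER stress response element, which is CCAAT, 9 bases and CCACG. The matches printed read as such on both strands, and matches to different motifs did not overlap.
AREG: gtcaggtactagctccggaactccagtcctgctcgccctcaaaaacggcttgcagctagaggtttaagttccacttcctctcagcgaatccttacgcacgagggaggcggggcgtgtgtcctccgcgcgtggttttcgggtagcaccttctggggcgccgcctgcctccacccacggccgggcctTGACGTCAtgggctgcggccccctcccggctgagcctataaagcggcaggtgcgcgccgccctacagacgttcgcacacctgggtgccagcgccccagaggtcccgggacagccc
EREG: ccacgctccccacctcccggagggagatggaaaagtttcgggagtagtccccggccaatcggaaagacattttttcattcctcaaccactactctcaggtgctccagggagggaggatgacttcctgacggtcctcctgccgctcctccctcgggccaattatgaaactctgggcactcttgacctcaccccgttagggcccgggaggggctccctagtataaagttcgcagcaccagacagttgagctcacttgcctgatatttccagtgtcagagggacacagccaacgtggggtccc
HBEGF: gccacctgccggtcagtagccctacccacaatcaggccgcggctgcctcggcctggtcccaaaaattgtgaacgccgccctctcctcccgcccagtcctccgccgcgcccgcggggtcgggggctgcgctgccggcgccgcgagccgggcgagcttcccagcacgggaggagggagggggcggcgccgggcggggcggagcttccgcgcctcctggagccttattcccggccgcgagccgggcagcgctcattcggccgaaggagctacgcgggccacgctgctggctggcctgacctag
EGFR internal start: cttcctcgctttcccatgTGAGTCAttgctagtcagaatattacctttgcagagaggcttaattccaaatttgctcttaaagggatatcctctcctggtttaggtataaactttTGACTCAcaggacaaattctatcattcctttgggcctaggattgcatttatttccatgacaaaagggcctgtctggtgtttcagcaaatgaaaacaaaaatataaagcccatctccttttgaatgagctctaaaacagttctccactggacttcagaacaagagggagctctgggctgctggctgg

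AREG holds a full cyclic AMP response element, from base -65 to base -58 before its start, a motif found in 1.85% of 35116 promoters of this length. EREG and HBEGF hold none of the 5 motifs in this window, nor does ADAM17. Of the EGFR starts in the table, the main one has no match and the internal one has 2 AP-1 sites, TGAGTCA from base -232 and TGACTCA from base -136. ERBB2, whose transcript did not differ by 2-fold, also has an AP-1 match (TGATTCA), and 7.71% of all promoters have one. The other motifs occur in 3.62% (ATF4-C/EBP), 1.97% (unfolded protein response core) and 0.0769% (ER stress response element) of promoters and in none of the member promoters searched. The promoters also differ in base composition, with a GC content of 75% for HBEGF, 66.3% for AREG, 57.7% for EREG and 42.0% for the internal EGFR start, beside a median of 58.7%. The table held promoters for 9 of the members, ERBB3 being the exception.

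HBEGF encodes heparin-binding EGF-like growth factor, which also binds ERBB4. In hg19 it lies on chromosome 5 from 139712428 to 139726188. Its level was 6.71 CPM in DMSO (221 estimated counts) and 95.1 CPM in CB-5083 (2704 estimated counts). The CB-5083 library was 14.2-fold higher, with a 95% exact (Clopper-Pearson) counting interval of 12.4 to 16.3, and the counting ranges of the libraries did not overlap. Only 12 of the 9543 genes past the filter had a higher log2 ratio than its 3.64. With DMSO 59.1% of all genes lay below HBEGF, and with CB-5083 88.4%.

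AREG, amphiregulin, had the next highest ratio of the members, at rank 20 of the 9543 genes. It was at 251 CPM in DMSO and 2704 CPM in CB-5083, 10.8-fold higher (10.5 to 11.0). With CB-5083 its transcript took 0.24% of all estimated counts, against 0.0283% with DMSO. The AREG row of the deposited table runs from 75310853 to 75490485 on chromosome 4 in hg19, a span of 179633 bases, whereas the gene is 9870 bases long in the newer assembly. The row thus spans AREG and the duplicate copy that hg19 carries, and its value cannot be split between them.

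EREG, epiregulin, was the most expressed member with DMSO, at 1146 CPM, a level above 99.7% of all genes. With CB-5083 it was at 2662 CPM, 2.32-fold higher (2.29 to 2.35), and about level with AREG in CPM. Its log2 ratio of 1.22 was 0.87 with library totals, which is short of the threshold. The gene starts 80.0 kb before AREG on chromosome 4, from 75230860 to 75254477. The fold of AREG exceeded that of EREG by 4.64 times (4.52 to 4.76, a counting interval by normal approximation on the log scale). In such a ratio of 2 members the library scaling and the gene lengths drop out.

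TGFA, transforming growth factor alpha, lay just short of 2-fold, at 74.5 CPM in DMSO and 145 CPM in CB-5083. Its fold was 1.95, with a counting interval of 1.85 to 2.05 that includes the threshold. BTC, betacellulin, was at 1.61 CPM in DMSO and 1.79 CPM in CB-5083 (53.0 and 51.0 estimated counts). The interval of its fold, 0.745 to 1.67, covers values on both sides of 1, and its log2 ratio was 0.10 by TMM but -0.12 by library totals. A 2-fold difference of BTC lies outside that interval. TGFA lies on chromosome 2 from 70674412 to 70781147 and BTC on chromosome 4 from 75671448 to 75719882. The fold of HBEGF exceeded that of TGFA by 7.29 times (6.30 to 8.43) and that of AREG by 1.32 times (1.15 to 1.51).

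**Figure D1:**
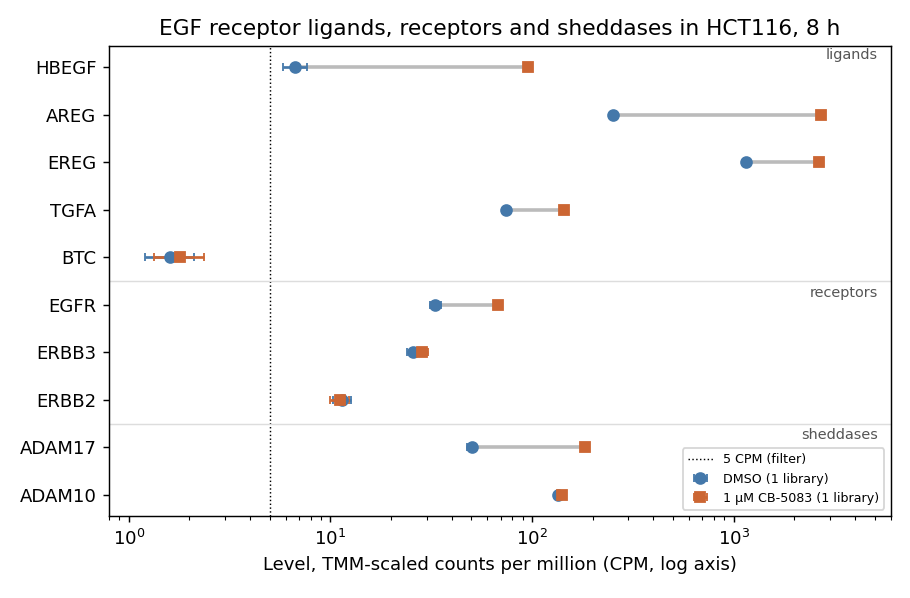
Level of each of the 10 members in TMM-scaled CPM (log axis) in the DMSO library (circles) and the CB-5083 library (squares), 1 library each, with 95% Poisson counting intervals as bars. HBEGF goes from 6.71 to 95.1 CPM and AREG from 251 to 2704 CPM, while the symbols of BTC, ERBB2, ERBB3 and ADAM10 lie on or beside each other.

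EGFR, the receptor of all 5 ligands, was the receptor with a difference past the threshold, and by a narrow margin. It was at 33.2 CPM in DMSO and 67.9 CPM in CB-5083, 2.04-fold higher (1.90 to 2.20), on chromosome 7 from 55086725 to 55275031. Its log2 ratio was 1.01, but 0.68 by library totals, 0.91 by upper quartile and 0.94 in the authors' deposited table, all short of 2-fold. ERBB2, which has no known ligand and serves as a partner, was at 11.4 and 11.1 CPM, a fold of 0.972 (0.834 to 1.13). ERBB3, a neuregulin receptor with an impaired kinase, was at 25.6 and 28.5 CPM, a fold of 1.11 (1.01 to 1.23) whose log2 ratio was 0.15 by TMM but -0.18 by library totals. ERBB2 lies on chromosome 17 from 37844393 to 37884915 and ERBB3 on chromosome 12 from 56473809 to 56497291.

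In a ratio of 2 receptors the library scaling drops out by construction, although the call of EGFR depends on it. The fold of EGFR exceeded that of ERBB2 by 2.10 times (1.78 to 2.49) and that of ERBB3 by 1.84 times (1.63 to 2.07). Per kilobase of the longest annotated transcript, the order with DMSO was ERBB3 (4.33 CPM per kb), EGFR (3.38) and ERBB2 (2.32). With CB-5083 it was EGFR (6.92), ERBB3 (4.82) and ERBB2 (2.26). By median transcript length ERBB3 stayed first in both libraries, at 44.6 and 49.7 CPM per kb, with EGFR at 14.8 and 30.3, so the change of order depends on the length used. The median length was only 574 bases for ERBB3, whose longest transcript has 5919. For EGFR these lengths were 2239 and 9821 bases.

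Of the sheddases, ADAM17 was past the threshold and ADAM10 was not. ADAM17, also known as TACE, was at 50.1 CPM in DMSO and 184 CPM in CB-5083, 3.66-fold higher (3.46 to 3.87). It lies on chromosome 2 from 9629411 to 9695917, and ADAM10 on chromosome 15 from 58888510 to 59042177. Its log2 ratio of 1.85 was exceeded by 1.60% of the genes past the filter and was 1.51 with library totals. ADAM10 was at 135 and 141 CPM, a fold of 1.05 (1.01 to 1.10), and its log2 ratio was 0.07 by TMM but -0.27 by library totals and -0.03 by upper quartile. The fold of ADAM17 exceeded that of ADAM10 by 3.49 times (3.25 to 3.74). Per kilobase of the longest transcript ADAM10 was the higher with DMSO (11.8 against 7.63 CPM per kb) and ADAM17 with CB-5083 (27.9 against 12.4). By median transcript length ADAM10 was the higher in both libraries, at 200.0 and 209.9 CPM per kb. The median length was only 674 bases for ADAM10, whose longest transcript has 11431. For ADAM17 these lengths were 2839 and 6573 bases.

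The scaling therefore decides whether EREG and EGFR count as higher, and not whether HBEGF, AREG and ADAM17 do. With library totals 3 of 10 members were higher, those 3, beside 3.86% of all genes past the filter under that scaling. In the authors' deposited table the log2 ratios of HBEGF, AREG, ADAM17 and EREG were 3.74, 3.34, 1.78 and 1.13, and those of TGFA and ADAM10 were 0.87 and -0.02.

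**Figure D2:**
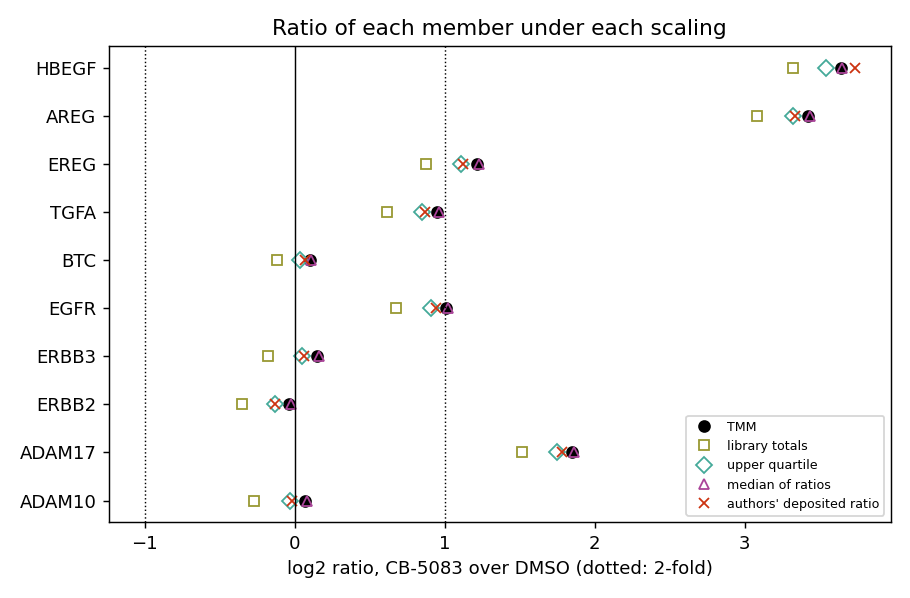
The log2 ratio of CB-5083 over DMSO for each member under 4 scalings and as the authors deposited it, with dotted lines at 2-fold. HBEGF, AREG and ADAM17 lie beyond 2-fold under each of these, EREG and EGFR fall on either side of it, and ERBB3, ADAM10 and BTC fall on either side of 0.

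The make-up of the ligand transcripts shifted from EREG to AREG. Summed per kilobase of the longest transcript, the 5 ligands and NRG1, the other EGF family ligand with a mean of at least 1 CPM, were at 472 CPM per kb with DMSO and 2832 with CB-5083, a 5.998-fold difference. EREG made up 52.6% of that sum with DMSO and 20.4% with CB-5083. AREG made up 42.9% and 77.0%. HBEGF, despite the highest fold, made up 0.595% and 1.41%, and TGFA 3.66% and 1.19%.

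The direction of that shift did not depend on the transcript length used, but the shares did. With median lengths EREG went from 70.9% to 40.1% and AREG from 21.0% to 54.9%, and the sum differed by 4.11-fold. The median length was only 1290 bases for EREG, whose longest transcript has 4619, and 812 for TGFA, whose longest has 4310. For AREG these lengths were 956 and 1240 bases. The AREG shares are those of the row that spans both copies. CPM are not divided by length, so their sum weighs long transcripts more. In CPM the 5 ligands summed to 1480 with DMSO and 5608 with CB-5083. They took 0.167% and 0.498% of all estimated counts.

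**Figure D3:**
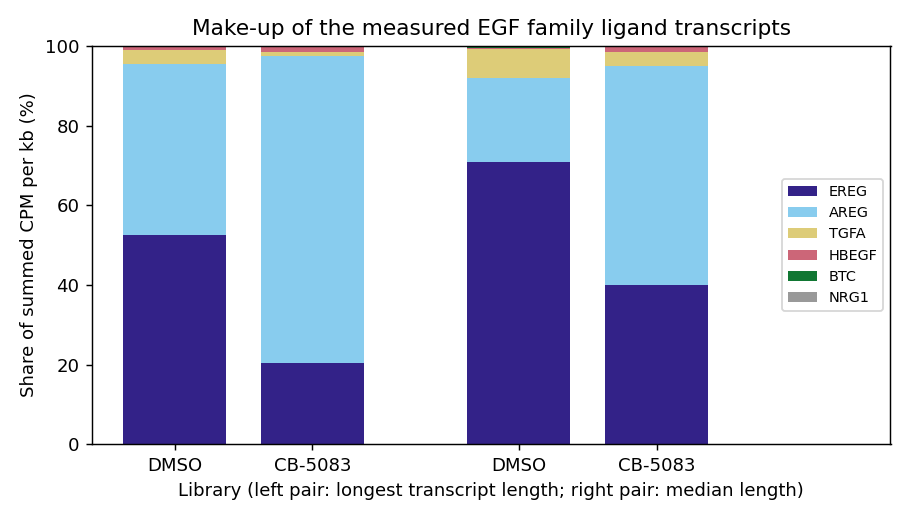
Share of each measured EGF family ligand in the summed CPM per kilobase of transcript (percent), by longest transcript length (left pair of bars) and by median length (right pair). AREG is the larger part with CB-5083 and EREG with DMSO under both lengths, and BTC and NRG1 are too thin to see.

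The ligand genes AREG, EREG, BTC and EPGN lie in 1 stretch of chromosome 4. Of the genes past the filter there, only AREG and EREG counted as higher. Within 500 kb of AREG or EREG the table holds 13 genes other than the members, of which 5 had a mean of at least 1 CPM. CXCL3, CXCL2 and BC016361 were measured but under the filter, so only MTHFD2L and PARM1 could be called. Of these 0 were higher and 0 lower, beside 7.22% and 4.91% of all genes past the filter. The median log2 ratio of the 5 measured genes was 0.10. CXCL2, a chemokine gene, was at 0.485 and 2.04 CPM, under the filter, a 4.20-fold difference (2.38 to 7.83). PARM1, on the far side of BTC, was at 29.2 and 17.7 CPM, and MTHFD2L, a mitochondrial folate enzyme, at 22.0 and 19.2 CPM. EPGN, epigen, was listed at 0 in both libraries. A 0 leaves room for 3 counts, or 0.0910 CPM (DMSO) and 0.106 CPM (CB-5083).

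Around HBEGF there are 29 other genes within 500 kb, 17 of them measured, with a median log2 ratio of 0.16. BC042448, APBB3 and TMCO6 were measured but under the filter. Of the other measured genes 1 was higher and 1 lower, beside 7.22% and 4.91% of all genes past the filter. ANKHD1, an ankyrin repeat protein, was the higher one, at 100.3 and 217 CPM (2.17-fold, 2.08 to 2.26), and it overlaps a read-through gene with which it can share reads. IGIP, which promotes IgA production, was the lower one, at 11.3 and 4.61 CPM. IGIP reached 5 CPM in the DMSO library only. NRG2, a neuregulin gene, was at 0.455 and 0.0352 CPM.

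**Figure D4:**
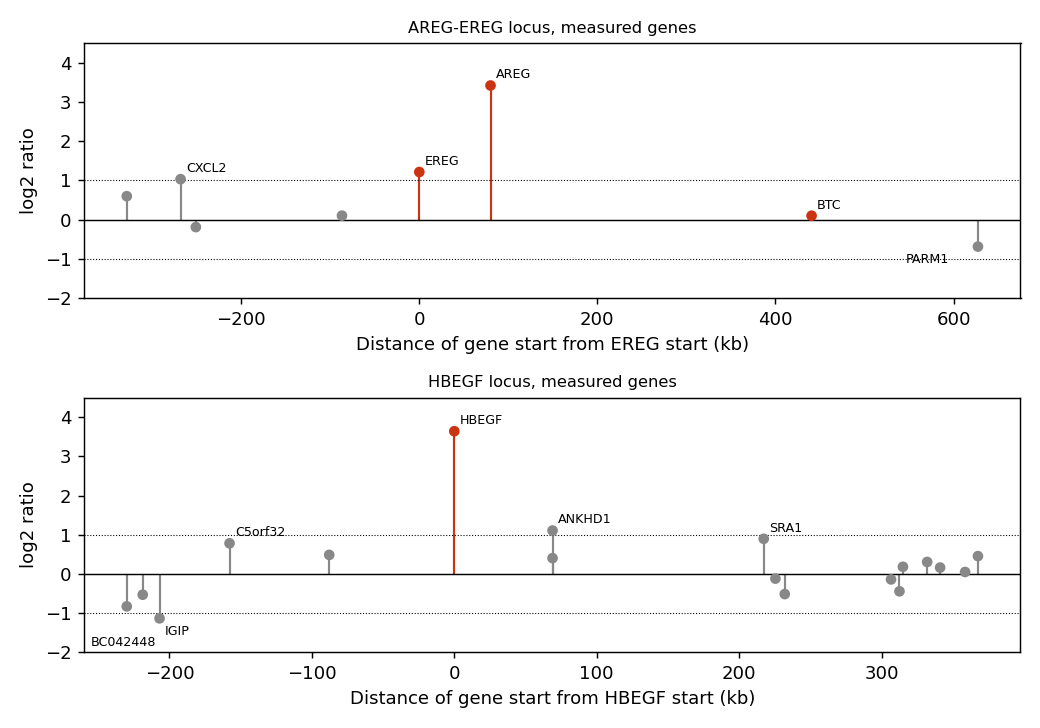
The log2 ratio of CB-5083 over DMSO (TMM) for each measured gene within 500 kb, by the distance of its start from that of EREG (top) or HBEGF (bottom) in kb, with members in red. AREG at 3.42 and HBEGF at 3.64 stand above EREG at 1.22 and above the genes that are not members, which range from -0.69 to 1.03 and from -1.13 to 1.11.

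The other EGF family ligands were scarcely expressed. Only NRG1 passed the filter, through the DMSO library only, so the others could not be called. Of 5 matched in the table only NRG1, a ligand of ERBB3 and ERBB4, had a mean of at least 1 CPM, at 5.13 CPM in DMSO and 3.20 CPM in CB-5083. Its fold was 0.624 (0.478 to 0.810), which counts as neither higher nor lower. EGF itself had 11 and 1 estimated counts, a fold of 0.105 (0.00245 to 0.725). NRG4 had 23.1 and 2 estimated counts. ERBB4, the remaining receptor of the family, had 3 estimated counts with DMSO and was listed at 0 with CB-5083.

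The pathway lists below are read beside the shares over all genes past the filter, 7.22% higher and 4.91% lower, and beside their median log2 ratio of 0.09 by TMM and -0.23 by library totals. Of 19 measured sheddase regulators and other sheddases, 13 passed the filter, and 0 of these were higher and 1 was lower, beside 7.22% and 4.91%. The median log2 ratio of those 13 was -0.28, or -0.56 by library totals, with which 4 were lower. Under that scaling 994 of the 9623 genes past the filter were lower. ADAM19, a related metalloprotease, was at 31.1 and 5.25 CPM, 5.91-fold lower (4.99 to 7.09). ADAM15 was at 11.5 and 5.63 CPM, TSPAN14, a tetraspanin that partners ADAM10, at 45.1 and 25.6 CPM, and TIMP3, an inhibitor of ADAM17, at 2.06 and 4.47 CPM, under the filter. ADAM9 was the most expressed, at 487 and 530.4 CPM. The iRhom genes RHBDF1 and RHBDF2, whose products carry ADAM17 to the cell surface, were at 1.18 against 1.97 CPM and at 2.94 against 2.53 CPM, also under the filter.

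Of 19 measured feedback inhibitors of the receptors 15 passed the filter, and 2 were higher and 0 lower, beside 7.22% and 4.91% of all genes. Their median log2 ratio was 0.52 (0.18 by library totals). ERRFI1, also called MIG6, which binds and blocks the EGFR kinase, was at 551 CPM in DMSO and 3434 CPM in CB-5083, 6.24-fold higher (6.14 to 6.34). CBLB, a ubiquitin ligase of activated receptors, was at 4.58 and 15.5 CPM (3.38-fold, 2.80 to 4.09), and passed the filter through the CB-5083 library only. RNF41, a ubiquitin ligase of ERBB3, was at 31.0 and 56.6 CPM. SPRY2, a Sprouty inhibitor of RAS-ERK signalling, was at 6.98 and 3.38 CPM, giving log2 ratios of -0.87 (TMM) and -1.15 (library totals).

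Of 13 measured adaptors and effectors 11 passed the filter, and 2 were higher and 1 lower, beside 7.22% and 4.91%. Their median was 0.39 (0.05 by library totals). SOS2, a RAS exchange factor, was at 18.4 and 54.9 CPM (2.99-fold, 2.72 to 3.29), and EPS15, an endocytic EGFR substrate, at 98.6 and 204 CPM. The log2 ratio of EPS15 was 1.04, but 0.71 with library totals. The docking protein genes went opposite ways, with GAB1 at 5.95 and 2.46 CPM and GAB2 at 1.43 and 4.33 CPM, the latter under the filter. GAB1 passed the filter through the DMSO library only, and it no longer counted as lower by median of ratios, with a pseudocount of 5 CPM, with a filter of 10 CPM or at 3-fold. PTPN11, the phosphatase SHP2, was the most expressed, at 475 and 642 CPM.

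Of 11 measured genes of the RAS-RAF-MEK-ERK cascade 9 passed the filter, and 0 were higher and 0 lower, beside 7.22% and 4.91%. Their median log2 ratio was 0.15 by TMM but -0.15 by library totals. BRAF came nearest, at 7.68 and 16.0 CPM, a fold of 2.09 that fell short on the log2 scale with the pseudocount (0.97). MAP2K1, which encodes MEK1, was at 81.8 and 128 CPM, NRAS at 230.5 and 288 CPM, and the scaffold KSR1, under the filter, at 1.65 and 1.03 CPM.

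Of 19 measured transcriptional targets of ERK 18 passed the filter, and 7 were higher and 1 lower, beside 7.22% and 4.91% of all genes. Their median log2 ratio was 0.82. By library totals 6 were higher and 2 lower, with a median of 0.49. Under that scaling 371 genes were higher and 994 lower, of 9623 past the filter. DUSP5, a nuclear ERK phosphatase, was at 66.2 and 833 CPM, the highest ratio of this list at 3.63. ETV5, an ETS factor, was 3.96-fold higher (3.78 to 4.15), EPHA2, a receptor tyrosine kinase, 3.44-fold (3.12 to 3.80) and FOSL1, the AP-1 subunit FRA1, 3.04-fold (2.84 to 3.26). PHLDA1, the most expressed of this list by the mean of both libraries, was at 458 and 986 CPM, giving log2 ratios of 1.11 (TMM) and 0.76 (library totals). CCND1, cyclin D1, was the lower gene, at 810 and 354 CPM. 4 members of this list are also on the list of feedback inhibitors.

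Of 16 measured genes of receptor endocytosis and sorting 15 passed the filter, and 1 was higher and 0 lower, beside 7.22% and 4.91%. Their median was 0.40 (0.07 by library totals). RAB5A, the GTPase of early endosomes, was at 83.8 and 216 CPM (2.57-fold, 2.46 to 2.69). USP8, which deubiquitinates EGFR at endosomes, was at 121 and 205 CPM, STAM2, a subunit of the ESCRT-0 complex, at 42.1 and 62.8 CPM, and LRRK1, a kinase of EGFR trafficking, at 8.68 and 5.28 CPM. CLTC, the clathrin heavy chain, was the most expressed, at 1221 and 1730 CPM. Over these lists 78 of 94 measured genes passed the filter, and 12 were higher and 3 lower.

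**Figure D5:**
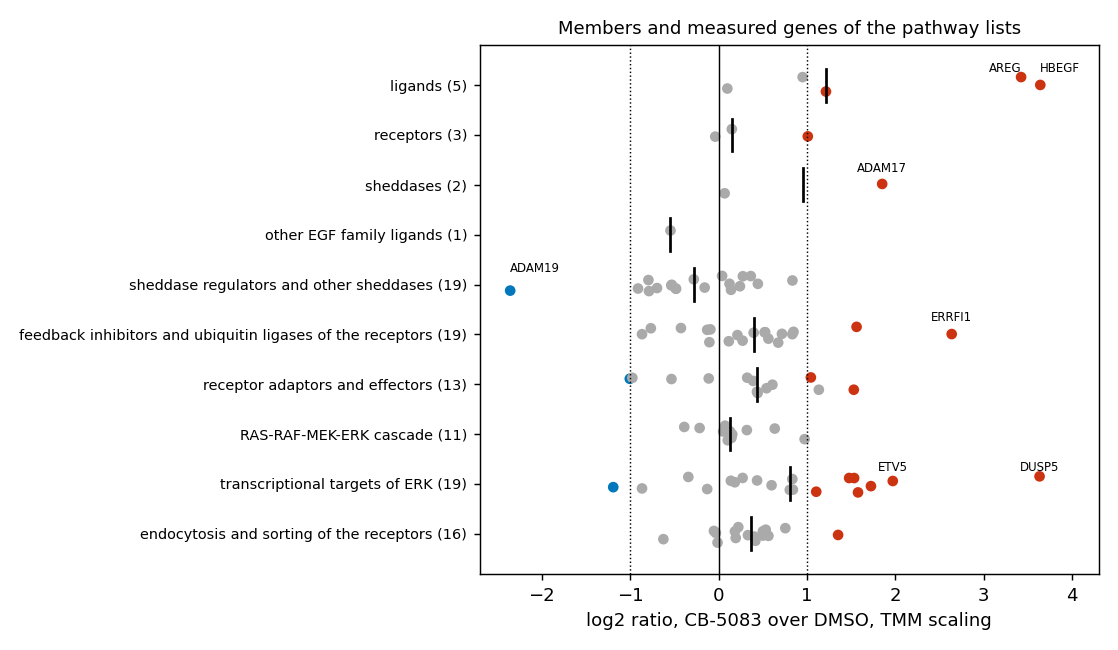
The log2 ratio of CB-5083 over DMSO (TMM) for the members by role and for each measured gene of the pathway lists, with the number of genes in brackets. Red marks genes counted as higher, blue lower and grey neither, and black bars give medians over the genes plotted, which run from -0.54 for NRG1 alone to 1.22 for the 5 ligands.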

How the data were processed

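RNA was sequenced from HCT116 cells, 1 library with DMSO and 1 with CB-5083, and samples were grouped by the labels. RSEM 1.2.0 and hg19 are named in the submitters' processing notes, with an aligner not given in the sources used here. Each deposited value is a signal, an RSEM estimate that the authors had scaled to a 75th percentile near 1000, judged from the values. Dividing by the step between low values (1.08 with DMSO, 1.18 with CB-5083) gave back estimated counts, of which 76.7% and 77.4% of those up to 5 were whole within 0.02. The design had assumed estimated counts or a scaled form of them. The authors' deposited log2 ratio is that of the same values, without a pseudocount.

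CPM used TMM factors of 1.126 (DMSO) and 0.888 (CB-5083), with trims of 30% and 5%, and ratios a pseudocount of 1 CPM. The pseudocount understates differences of low genes. List genes counted as measured at a mean of 1 CPM. Transcript lengths came from GENCODE release 29 and promoters from RefSeq (GRCh38.p14); coordinates of genes are hg19, as deposited. The members and lists were chosen with earlier results of these data known. From each list up to 4 measured genes with the largest ratios and the most expressed gene are named, with the genes near the higher ligands. CCND1, RHBDF1, RHBDF2, ERBB4 and the scarce ligands fall outside that rule and were named after their values were seen. NRG3 and ADAM12 were on the lists, but no row was matched to them. Scripts were tested on simulated data. Matplotlib 3.10.9, scipy 1.17.1, pandas 2.3.3 and numpy 2.4.6 ran under Python 3.11.15, and 11 alternatives were run.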

Additional observations from a re-analysis of the deposited data

How the results depend on the processing

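HBEGF, AREG and ADAM17 kept their direction and stayed past the threshold under all 11 alternatives, with log2 ratios of 3.10 to 3.74, 3.08 to 3.44 and 1.51 to 1.86. EREG did so under 9 and EGFR under 6, and TGFA stayed short of the threshold under 10. ERBB2 and ERBB3 stayed within it under all 11, as did ADAM10 and BTC. The signs of ERBB3, ADAM10 and BTC changed under 1, 3 and 1 of them. Members higher numbered 3 with library totals and 3 at a 3-fold threshold. Over all genes, 689 were higher and 469 lower of 9543 in the main setting, and 371 and 994 of 9623 with library totals. Upper quartile scaling gave 571 and 597, and median of ratios 710 and 459. A pseudocount of 0.5 CPM gave 720 and 520, a pseudocount of 5 CPM 518 and 198, and a filter of 10 CPM 632 and 316. There were 1660 and 1195 at 1.5-fold, 245 and 106 at 3-fold, and 637 and 723 by the authors' deposited ratio. The threshold and pseudocount do not enter the filter, so the 9543 genes apply there too. Lower sheddase regulators numbered 4 with library totals, 2 with upper quartile scaling, 5 at 1.5-fold and 3 by the authors' deposited ratio. Higher feedback inhibitors numbered 5 at 1.5-fold and 1 at 3-fold, and 1 was lower with library totals, at 1.5-fold and by the authors' deposited ratio. Higher adaptors numbered 1 with library totals, upper quartile scaling and the authors' deposited ratio, and 0 at 3-fold. Lower adaptors numbered 2 with library totals, upper quartile scaling, a pseudocount of 0.5 CPM, 1.5-fold and the authors' deposited ratio. They numbered 0 with median of ratios, a pseudocount of 5 CPM, a filter of 10 CPM and 3-fold. Higher cascade genes numbered 1 with a pseudocount of 0.5 CPM and 2 at 1.5-fold. Higher ERK targets numbered 11 at 1.5-fold and 3 at 3-fold, and lower ones 2 with library totals, at 1.5-fold and by the authors' deposited ratio, and 0 at 3-fold. Higher endocytosis genes numbered 2 at 1.5-fold and 0 at 3-fold, and 1 was lower at 1.5-fold. A lower or higher threshold or filter admits more or fewer genes by construction, and a larger pseudocount makes ratios smaller in size. Another scaling shifts the ratios of all genes the same way. The median shift from TMM was -0.33 for library totals and -0.10 for upper quartile. For the authors' deposited ratio the cause was not tested. AREG and its copy share 1 row, so the alternatives that split or sum them were not run. Depth limits BTC and the other scarce ligands.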
